A study of Bos taurus with 68 samples.

Results

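The transporters described here are 7 bovine ATP-binding cassette (ABC) proteins of lipid and organic anion transport: ABCA1, ABCA5, ABCC2, ABCC3, ABCC10, ABCD3 and ABCG2. They were chosen by gene symbol, and every cDNA clone on the array that names one of them was kept, which gave 10 of the 5693 listed clones. ABCA1 was represented by 4 clones, kept apart and called here clone a (BF039264), clone b (BF040532), clone c (BF042703) and clone d (BF043772). The other genes had 1 clone each: BF039538 for ABCA5, AW465042 for ABCC2, BM366529 for ABCC3, AW461699 for ABCC10, BF042967 for ABCD3 and AW462521 for ABCG2. ABCA1 clone c had 2 cows on day 14, below the minimum of 3 cows on each day, so 9 of the 10 clones were among the 5280 tested.

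ABC proteins use the energy of ATP to move substrates across membranes, and the hepatocyte has different ones on its bile side, its blood side and its internal membranes. ABCC2 (MRP2) exports conjugated organic anions such as bilirubin glucuronides into the bile canaliculus, and ABCG2 (BCRP) exports sulfated conjugates, urate and many drugs across the same apical membrane. ABCC3 (MRP3) lies in the basolateral membrane and returns conjugates to the blood. ABCA1 loads cholesterol and phospholipid onto apolipoprotein A-I, the first step in forming high density lipoprotein. ABCA5 is a relative of ABCA1 in lysosomes and late endosomes, ABCC10 (MRP7) is an exporter of conjugates and drugs known from human cells, and ABCD3 (PMP70) carries fatty acids and bile acid precursors into peroxisomes, so it is an importer and not an exporter. The bile salt pump ABCB11 and the sterol pair ABCG5 and ABCG8 were not analysed here.

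Liver RNA of 5 cows (6934, 6983, 7079, 7186 and 7188) was followed through late pregnancy, calving and early lactation at 7 times, days -65, -30, -14, 1, 14, 28 and 49 relative to calving. Each cow-day was hybridised to a pair of 2-colour cDNA arrays with exchanged dyes against 1 reference standard RNA, and the values are log2 ratios. The arrays used for the tests held 30 cow-days: all 5 cows were present on days -65, -30, 1 and 28, but only 4 on day 49 and 3 each on days -14 and 14. The sources used here do not give breed, parity or diet, nor the tissues that made up the reference.

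The labels do not say which dye channel is the numerator, so the direction "liver over reference" is only likely. It rests on known tissue genes, and if the ratio runs the other way every sign below turns, also of differences between days. The 5 hepatocyte markers on the array, which also served to set this direction, all lay above the reference, from APOA1 at 0.06 ± 0.21 to transferrin (TF) at 3.78 ± 0.29 (SD, n = 5 cows). Macrophage markers lay above it too (11 of 11), and stellate cell and matrix markers lay below it (6 of 6). In RNA from whole liver, fewer cells of a type and less RNA per cell cannot be told apart. The exchanged arrays of a pair should run in opposite directions before turning. Their correlation across rows was below 0 in 25 of 30 cow-days, from -0.53 to -0.0026, so in some of them it was close to none. It was above 0 in the other 5, from 0.032 to 0.18, among them cow 7079 on day 1 (0.068).

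ABCC2 and ABCG2 were the members above the reference in every cow-day. This held for 2 of the 9 tested members and for 3.86% of all tested clones, while 0 of 9 members and 7.35% of all tested clones were below it in every cow-day. ABCC2 lay at 2.60 ± 0.34 (SD over 5 cow means), a ratio of 6.06, and its 30 values ran from 1.20 to 4.10. ABCG2 lay at 1.33 ± 0.33, a ratio of 2.51, with values from 0.21 to 2.56. The mean level of both was above the reference with either dye orientation alone. ABCC2 was at 2.99 with liver in Cy3 and 2.21 with liver in Cy5, and ABCG2 at 1.41 and 1.25 in that order of dyes. Single ABCG2 arrays with liver in Cy5 read below 0 in cow 7186 on day -14 (-0.43) and in cow 7188 on days 1 (-0.68) and 28 (-0.41). These levels are descriptions, since arrays were centred on their median and the reference is a single RNA.

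The clones of ABCA1 did not give a common level. Clone d lay at 1.01 ± 0.25 (SD over 5 cow means) and above 0 in 29 of 30 cow-days. Clone b lay at 0.90 ± 0.42, above 0 in 25 of 30 cow-days, with single values from -1.55 to 2.23. Clone a lay at 0.45 ± 0.28, but at -0.15 with liver in Cy5 alone and 1.06 with liver in Cy3 alone, and clone c lay at 0.12 ± 0.12, again on either side of 0 by dye. Which transcripts each clone binds was not tested.

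ABCD3 lay at 0.62 ± 0.21 (SD over 5 cow means), above 0 in 22 of 29 cow-days. ABCA5 lay at -0.44 ± 0.30 and was above 0 in 8 of 30 cow-days, and both kept their side of the reference in either orientation. ABCC3 at 0.07 ± 0.46 and ABCC10 at -0.11 ± 0.21 had no side that both orientations shared. ABCC3 was at 0.64 with liver in Cy3 and -0.50 with liver in Cy5, and ABCC10 was at 0.27 with liver in Cy3 and -0.50 with liver in Cy5.

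**Figure D1:**
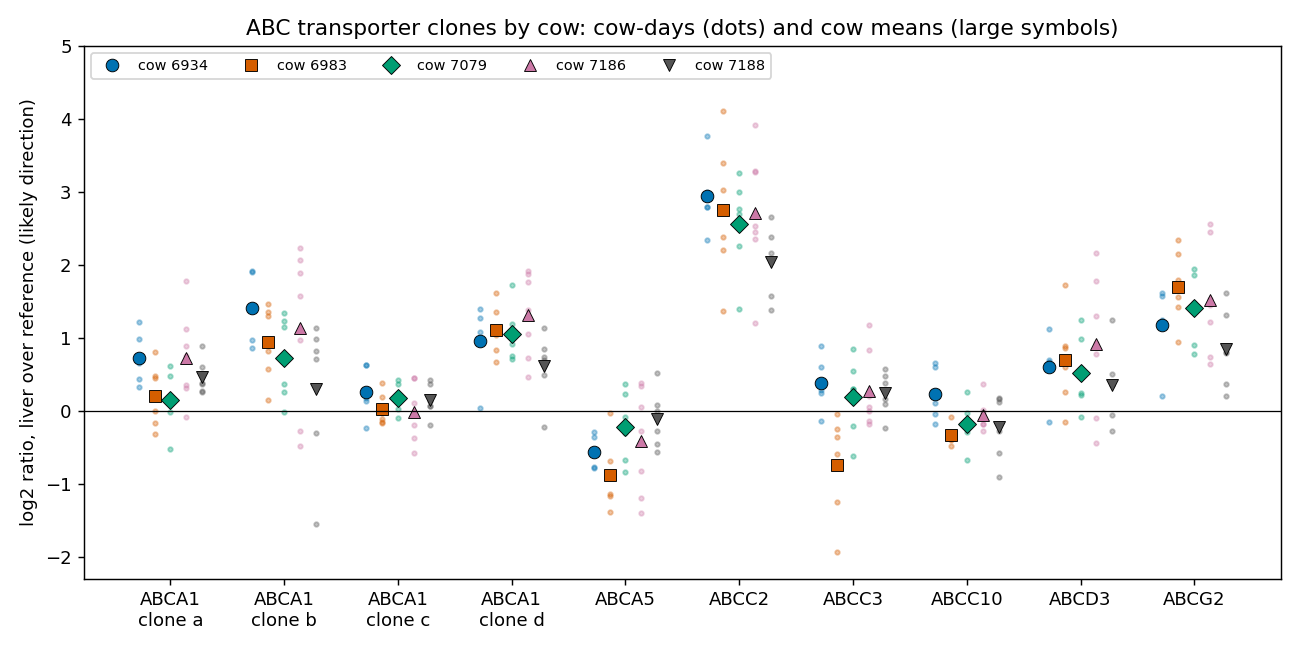
Log2 ratio of liver over reference (likely direction, vertical axis) for the 10 clones, with small dots for single cow-days and large symbols for the mean of each of 5 cows. ABCC2 lies between 1.20 and 4.10 and ABCG2 between 0.21 and 2.56, both above 0 in every cow-day. The lowest ABCG2 value is smaller than the error of its pair mean (0.51). For ABCC3 the mean of cow 6983 lies at -0.74 while the other cow means lie between 0.20 and 0.38.

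ABCC2, the canalicular exporter, was the member with the largest estimated difference between days. On day 1 its log2 ratio was 2.34 in cow 6934, 2.21 in cow 6983, 2.26 in cow 7079, 2.53 in cow 7186 and 1.39 in cow 7188. On day -30 it was 2.79 in cow 6934, 4.10 in cow 6983, 2.70 in cow 7079, 3.91 in cow 7186 and 2.38 in cow 7188. Every cow was lower on day 1 than on day -30, by 0.44 to 1.90, although the highest day 1 value (cow 7186) passed the lowest day -30 value (cow 7188). The estimate for day 1 minus day -30 was -1.03 ± 0.40 (SE, 95% interval -1.87 to -0.20), with an unadjusted p of 0.0176 in limma. After Benjamini-Hochberg adjustment over all 5280 clones the p was 0.525, so ABCC2 was not called.

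On day 28 the ABCC2 ratio was 3.77 in cow 6934, 3.39 in cow 6983, 2.76 in cow 7079, 3.28 in cow 7186 and 2.04 in cow 7188. In the mean of the array pair every cow was higher on day 28 than on day 1, by 0.51 to 1.43. The groups again overlapped through the low value of cow 7188 on day 28. With liver in Cy3 alone, day 28 read below day 1 in cow 7079 (1.96 against 2.64) and cow 7186 (2.40 against 3.35). With liver in Cy5 alone it did so in cow 7188 (0.71 against 1.17). The other single-orientation readings were higher on day 28. The estimate for day 28 minus day 1 was 0.91 ± 0.40 (SE, 95% interval 0.07 to 1.74), with an unadjusted p of 0.0351 and an adjusted p of 0.613 in limma. It was 0.67 with liver in Cy3 alone and 1.14 with liver in Cy5 alone. Day 1 enters both differences, so a low day 1 alone gives both. A ratio lower on day 1 than on both day -30 and day 28 in all 5 cows was found for ABCC2, which is 1 of the 8 member clones with all 15 values (ABCD3 lacked 1), and for 1.53% of the 5019 clones with all 15. Taken singly, day 1 below day -30 in 5 of 5 cows held for 1 of these 8 members against 5.66% of clones, and day 28 above day 1 in 5 of 5 cows for 1 of 8 against 6.28% of clones.

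Over all 7 days the ABCC2 ratio did not follow a single slope. Its mean was 2.59 ± 0.64 on day -65 and 3.18 ± 0.78 on day -30 (SD, n = 5 each), then 2.08 ± 0.77 on day -14 with 3 cows. Day 1 had a mean of 2.14 ± 0.44 with 5 cows, day 14 one of 2.36 ± 0.95 with 3, day 28 one of 3.05 ± 0.67 with 5 and day 49 one of 2.41 ± 0.82 with 4. Day -30 stood highest and day -14 lowest, and each neighbouring pair in the order of means differed by less than the SD of either day. The days with low means were not all low in each cow: on day -14 cow 7186 was at 1.20 but cow 7188 at 2.65, its highest value, and on day 14 cow 6983 was at 1.37 but cow 7079 at 3.26. The F test over the 7 days gave F = 1.92, with an unadjusted p of 0.120 and an adjusted p of 0.995 in limma. The mean of lactation (days 14, 28 and 49) minus the mean of the prepartum days (-65, -30 and -14) was -0.05 ± 0.27 (SE).

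Marker lists of cell types are given for the same days. The mean of the 5 hepatocyte markers lay between 1.45 and 2.26 on day 1, against 1.44 to 3.05 on day -30, and 3 of the 5 had an estimate below 0 between these days. TF stood at -1.25 ± 0.34 (SE, adjusted p = 0.320 in limma), SLC10A1 at -0.54 ± 0.49 and ASS1 at -0.40 ± 0.22, while APOA1 stood at 0.17 ± 0.20 and ASGR2 at 0.68 ± 0.51, with 0 of the 5 called. The mean of 11 macrophage markers lay between 1.17 and 1.54 on day 1, against 0.94 to 2.76 on day -30, with 10 of 11 estimates below 0 and 0 called. The mean of 6 stellate cell and matrix markers lay between -3.60 and -2.24 on day 1, against -3.41 to -1.43 on day -30, with 6 of 6 estimates below 0 (median -0.72) and 0 called. For day 28 minus day 1 the median of these 6 was 0.59, with 5 of 6 above 0 and 0 called. In the same comparison the macrophage markers had a median of 0.37, with 10 of 11 above 0 and 0 called. The hepatocyte markers had one of 0.18, with 4 of 5 above 0 and 0 called. Bile duct markers had one of 0.011 (3 of 5 above 0) and endothelium markers one of 0.20 (3 of 4 above 0). Bile duct markers did not fall as a list: their median for day 1 minus day -30 was 0.14, with 2 of 5 below 0. Endothelium markers had a median of -0.03, with 2 of 4 below 0. Among all tested clones 3017 of 5280 estimates were below 0 for day 1 minus day -30. For day 28 minus day 1, 3265 of 5280 were above 0. Over the 30 cow-days ABCC2 correlated at 0.51 with the hepatocyte marker mean. The part of these markers in the ABCC2 values was not tested. Its highest single array read 5.30 (cow 6983, day -30, liver in Cy3), where the exchanged array of that cow-day read 2.91. Without cow 6983 the estimate for day 1 minus day -30 was -0.82. It was -1.14 with liver in Cy3 alone and -0.93 with liver in Cy5 alone, and it lay below 0 in all 18 alternatives tried, from -2.02 to -0.82.

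**Figure D2:**
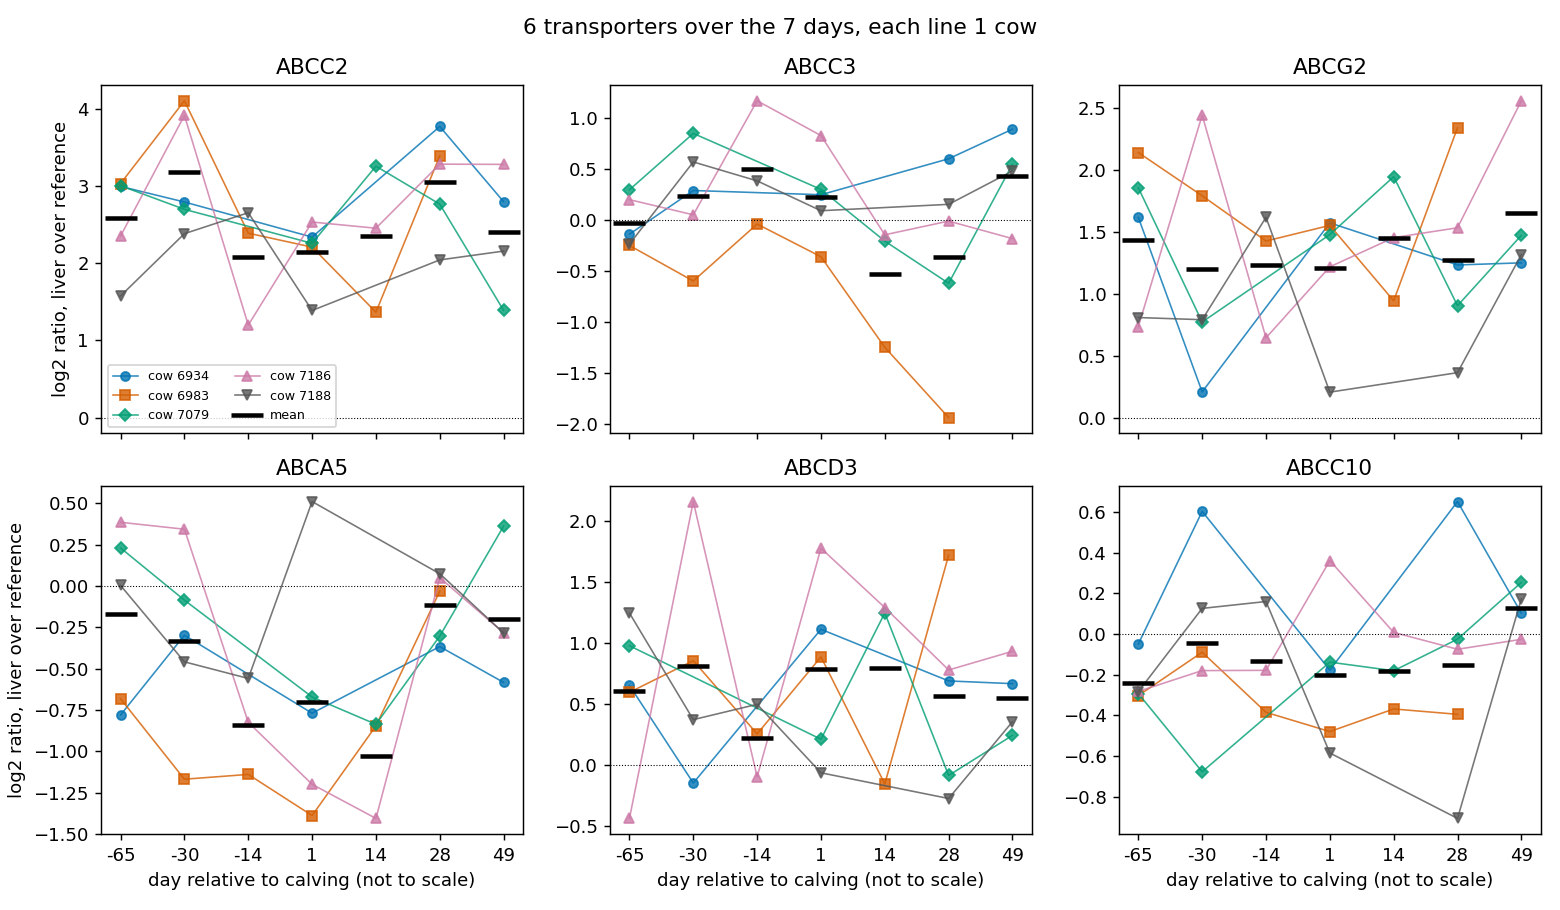
Log2 ratio of liver over reference (likely direction, vertical axes with their own ranges) on the 7 days in order for 6 transporters, with a line per cow and black bars for the mean over the cows sampled that day. As the mean of each array pair, ABCC2 is lower on day 1 than on days -30 and 28 in all 5 cows. ABCC3 of cow 6983 lies below the other cows, at -1.25 on day 14 and -1.94 on day 28.

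ABCC3, the basolateral exporter, was the member with the smallest p over the 7 days. On day 28 its log2 ratio was 0.60 in cow 6934, -1.94 in cow 6983, -0.62 in cow 7079, -0.01 in cow 7186 and 0.15 in cow 7188. On day 1 it was 0.25 in cow 6934, -0.36 in cow 6983, 0.30 in cow 7079, 0.83 in cow 7186 and 0.09 in cow 7188. Day 28 was lower in cows 6983, 7079 and 7186 and higher in cows 6934 and 7188, and the groups overlapped. Day 28 minus day 1 was -0.58 ± 0.27 (SE), with an unadjusted p of 0.0386 and an adjusted p of 0.622 in limma. Without cow 6983 this estimate was -0.34.

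The ABCC3 ratio had a mean of -0.02 ± 0.26 on day -65 and 0.23 ± 0.55 on day -30 (SD, n = 5 each), and of 0.51 ± 0.61 on day -14 with 3 cows. Day 1 had a mean of 0.22 ± 0.43 with 5 cows, day 14 one of -0.53 ± 0.62 with 3, day 28 one of -0.36 ± 0.98 with 5 and day 49 one of 0.43 ± 0.45 with 4. Cow 6983, the lowest on days 14 and 28, had no day 49 sample. In the order of means, day -14 was highest and day 14 lowest, and neighbours differed by less than the larger of their SDs. Over the days F was 2.84, at an unadjusted p of 0.0321 and an adjusted p of 0.920 in limma. Lactation minus prepartum was -0.47 ± 0.18 (SE, 95% interval -0.84 to -0.11), lower in 3 of 5 cows, with an unadjusted p of 0.0131 and an adjusted p that rounds to 1.00. By cow this difference was 0.67 in cow 6934, -1.30 in cow 6983, -0.67 in cow 7079, -0.59 in cow 7186 and 0.08 in cow 7188.

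The ABCC3 difference between lactation and prepartum depended on the dye. It was -1.04 with liver in Cy5 alone, with an adjusted p of 0.0487 in limma, and 0.10 with liver in Cy3 alone. Without cow 6983 it was -0.34. The arrays with liver in Cy3 read 1.14 higher on average than those with liver in Cy5 for this clone, and the orientations correlated at 0.33 over cow-days. ABCC3's 2 spots on an array correlated at 0.45, against 0.87 for ABCC2. The first spot of the clone alone gave a lactation minus prepartum estimate of -0.94, against -0.47 for the mean of both spots.

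ABCC3 was also the member that differed between cows. The F test over the 5 cows, with the days as terms, gave F = 6.42 and an adjusted p of 0.0222 in limma. Its cow means were 0.38 in cow 6934, -0.74 in cow 6983, 0.20 in cow 7079, 0.27 in cow 7186 and 0.24 in cow 7188, so 1 cow stood apart below the other 4. Without cow 6983 the F was 0.30 (adjusted p = 0.895). The call was also lost without cow 7186 (adjusted p = 0.107) and held in 9 of 15 alternatives. Of all tested clones 15.8% passed the same test (33.8% at an unadjusted p under 0.05), so 1 of 9 members, at either threshold, was no more than the background. The count of clones called between cows was itself unstable: it was 1 without cow 6983, 0 without cow 7186 and 4 with liver in Cy5 alone, against 833 of 5280 with all arrays.

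ABCG2, the other canalicular exporter, showed wide spread within days and no called difference. On day 1 its log2 ratio was 1.57 in cow 6934, 1.55 in cow 6983, 1.48 in cow 7079, 1.22 in cow 7186 and 0.21 in cow 7188. On day -30 it was 0.21 in cow 6934, 1.79 in cow 6983, 0.77 in cow 7079, 2.44 in cow 7186 and 0.79 in cow 7188. Day 1 was higher in cows 6934 and 7079 and lower in the other 3, and the groups overlapped fully. The estimate for day 1 minus day -30 was 0.00 ± 0.37 (SE), with a 95% interval from -0.77 to 0.78. Changes of up to about that size in either direction thus lay within the interval. The orientations differed in sign, at 0.53 with liver in Cy3 alone and -0.52 with liver in Cy5 alone. On day 28 the ratio ran from 0.36 in cow 7188 to 2.34 in cow 6983, and day 28 minus day 1 was 0.07 ± 0.37. This difference was -0.63 with liver in Cy3 alone and 0.77 with liver in Cy5 alone. The day means lay between 1.20 on day -30 and 1.65 on day 49. Lactation minus prepartum was 0.15 ± 0.25, higher in 3 of 5 cows (limma, adjusted p that rounds to 1.00).

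ABCA1, the exporter of cholesterol to apolipoprotein A-I, was not called in any comparison by any of its 3 tested clones. For day 1 minus day -30 clone a gave 0.02 ± 0.29 (SE), clone b -0.44 ± 0.53 and clone d -0.10 ± 0.30. For day 28 minus day 1 they gave 0.03 ± 0.29, -0.03 ± 0.53 and 0.11 ± 0.30 in the same order of clones. The estimates of clones a and d lay close to 0 with intervals of about ± 0.6. Clone b was the most variable: on day 28 it read 1.92 in cow 6934, 1.30 in cow 6983, 0.37 in cow 7079, 2.07 in cow 7186 and -1.55 in cow 7188. Lactation minus prepartum was 0.02 ± 0.19 for clone a, -0.08 ± 0.35 for clone b and -0.08 ± 0.20 for clone d.

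The 4 ABCA1 clones did not share a course over cow-days. Their pairwise correlations, over 29 or 30 cow-days, lay between -0.35 (clones c and d) and 0.31 (clones a and b). The exchanged arrays of a cow-day correlated at 0.69 for clone b, against 0.07 for clone a, 0.00 for clone d and -0.27 for clone c. The untested clone c had day means between -0.27 on day 14 (n = 2) and 0.35 on day 49 (n = 4).

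ABCA5, of lysosomes and late endosomes, had on day 28 a log2 ratio of -0.37 in cow 6934, -0.03 in cow 6983, -0.30 in cow 7079, 0.05 in cow 7186 and 0.07 in cow 7188. On day 1 it was -0.77 in cow 6934, -1.39 in cow 6983, -0.67 in cow 7079, -1.20 in cow 7186 and 0.51 in cow 7188. Day 28 was higher in 4 of 5 cows, and the single day 1 value of cow 7188 lay above all day 28 values. Day 28 minus day 1 was 0.59 ± 0.27 (SE), with an unadjusted p of 0.0406 and an adjusted p of 0.622 in limma. It was 1.02 with liver in Cy3 alone and 0.16 with liver in Cy5 alone. The lowest day means were -1.03 ± 0.33 on day 14 and -0.84 ± 0.29 on day -14 (SD, n = 3 each), and the highest was -0.11 ± 0.21 (n = 5) on day 28. Over the days F was 2.48, at an unadjusted p of 0.0535 and an adjusted p of 0.958. This F depended on the arrays used. It was 5.14 with liver in Cy3 alone, 0.71 with liver in Cy5 alone and 0.71 with 4 cow-days of another array print joined.

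ABCD3, the peroxisomal importer, lacked day -30 of cow 7079 and had 29 cow-days. On day 1 its log2 ratio was 1.11 in cow 6934, 0.89 in cow 6983, 0.21 in cow 7079, 1.78 in cow 7186 and -0.06 in cow 7188. On day -30 it was -0.15 in cow 6934, 0.86 in cow 6983, 2.16 in cow 7186 and 0.37 in cow 7188. Of the 4 cows with both days, 2 were higher and 2 lower on day 1, and the estimate was 0.01 ± 0.47 (SE, 95% interval -0.96 to 0.97). Day 28 minus day 1 was -0.22 ± 0.43 (95% interval -1.12 to 0.68), and lactation minus prepartum was 0.10 ± 0.30 (95% interval -0.51 to 0.71).

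ABCC10 was the member with the smallest error. Its 30 values ran from -0.91 to 0.65, and its day means lay between -0.24 ± 0.11 (SD, n = 5) on day -65 and 0.13 ± 0.12 (n = 4) on day 49. Day 1 minus day -30 was -0.16 ± 0.21 (SE), day 28 minus day 1 was 0.05 ± 0.21 and lactation minus prepartum was 0.05 ± 0.14. The last interval, from -0.24 to 0.34, was the narrowest among the members.

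Read over the 9 tested clones, 0 were called between days in any comparison. For the F test over days, 0 of 9 passed against 0.0189% of all tested clones, and 1 of 9 (ABCC3) had an unadjusted p under 0.05 against 5.21%. For day 1 minus day -30, 0 of 9 passed against 0.0189% of clones, and 1 (ABCC2) had an unadjusted p under 0.05 against 8.37%. For day 28 minus day 1, 0 of 9 passed against 0% of clones, and 3 (ABCA5, ABCC2 and ABCC3) had an unadjusted p under 0.05 against 7.82%. For lactation minus prepartum, 0 of 9 passed against 0% of clones, and 1 (ABCC3) had an unadjusted p under 0.05 against 3.86%. The single clone called over days among all 5280 names LOC327709, a glutathione S-transferase of the mu class and no member, at -1.78 for day 1 minus day -30 (limma, adjusted p = 0.00203). These 9 clones come from 7 genes and share their arrays, so they are not independent of each other.

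**Figure D3:**
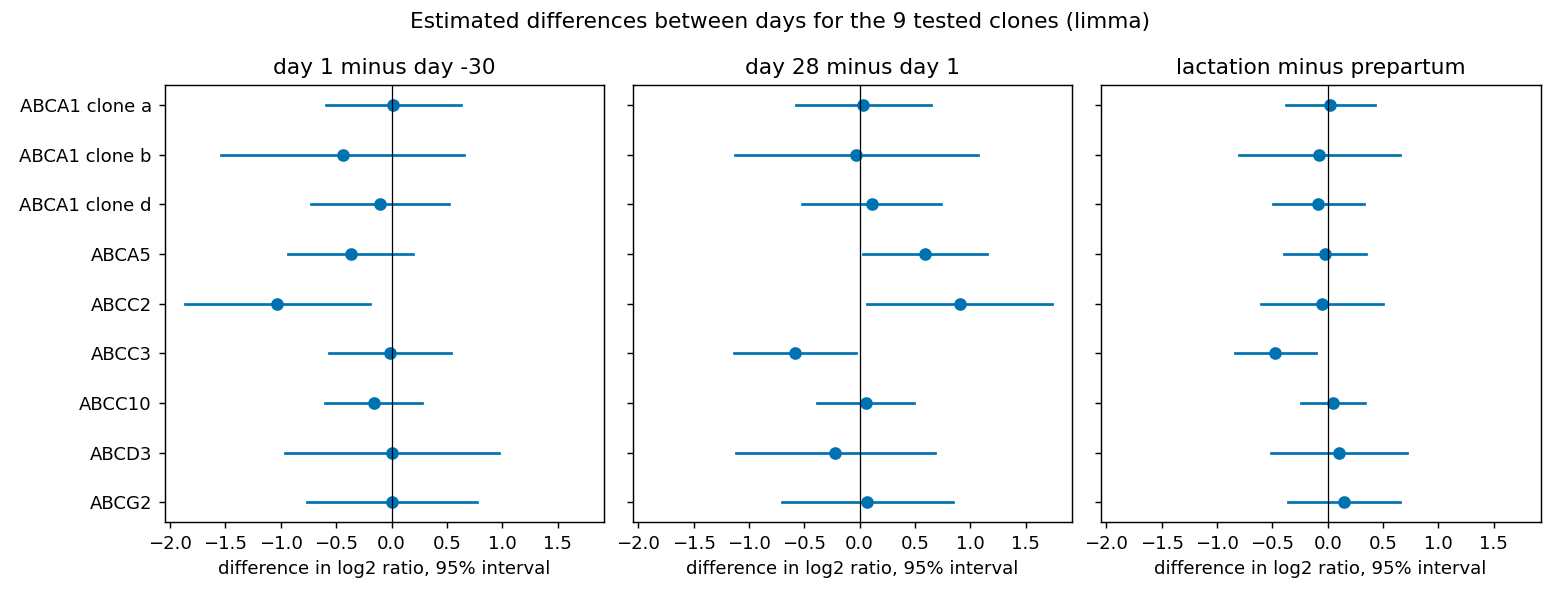
Estimated difference in log2 ratio (points) with 95% intervals (lines) for the 9 tested clones, in panels for day 1 minus day -30, day 28 minus day 1 and lactation minus prepartum. The intervals are unadjusted. They leave out 0 for ABCC2 in the first panel, for ABCA5, ABCC2 and ABCC3 in the second and for ABCC3 in the third.

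How far a member's values can be trusted can be read from the exchanged arrays of a cow-day. The correlation of the arrays with liver in Cy3 and those with liver in Cy5, over cow-days and after turning, was 0.69 for ABCA1 clone b, 0.46 for ABCA5, 0.35 for ABCC2, 0.33 for ABCC3 and 0.29 for ABCC10. It was 0.25 for ABCD3, 0.20 for ABCG2, 0.07 for ABCA1 clone a, 0.00 for clone d and -0.27 for clone c. The median over all tested clones was 0.20. The disagreement of the pair gave an error of the pair mean between 0.27 (ABCC10) and 0.53 (ABCC2) on the log2 scale. For ABCC2 this stood beside a residual SD of 0.69 after day and cow. The limma tests used this SD after moderation over all tested clones. ABCA1 clone a read 1.21 higher with liver in Cy3, ABCC2 0.78 higher and ABCC10 0.77 higher, and this dye offset cancels in the pair mean.

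**Figure D4:**
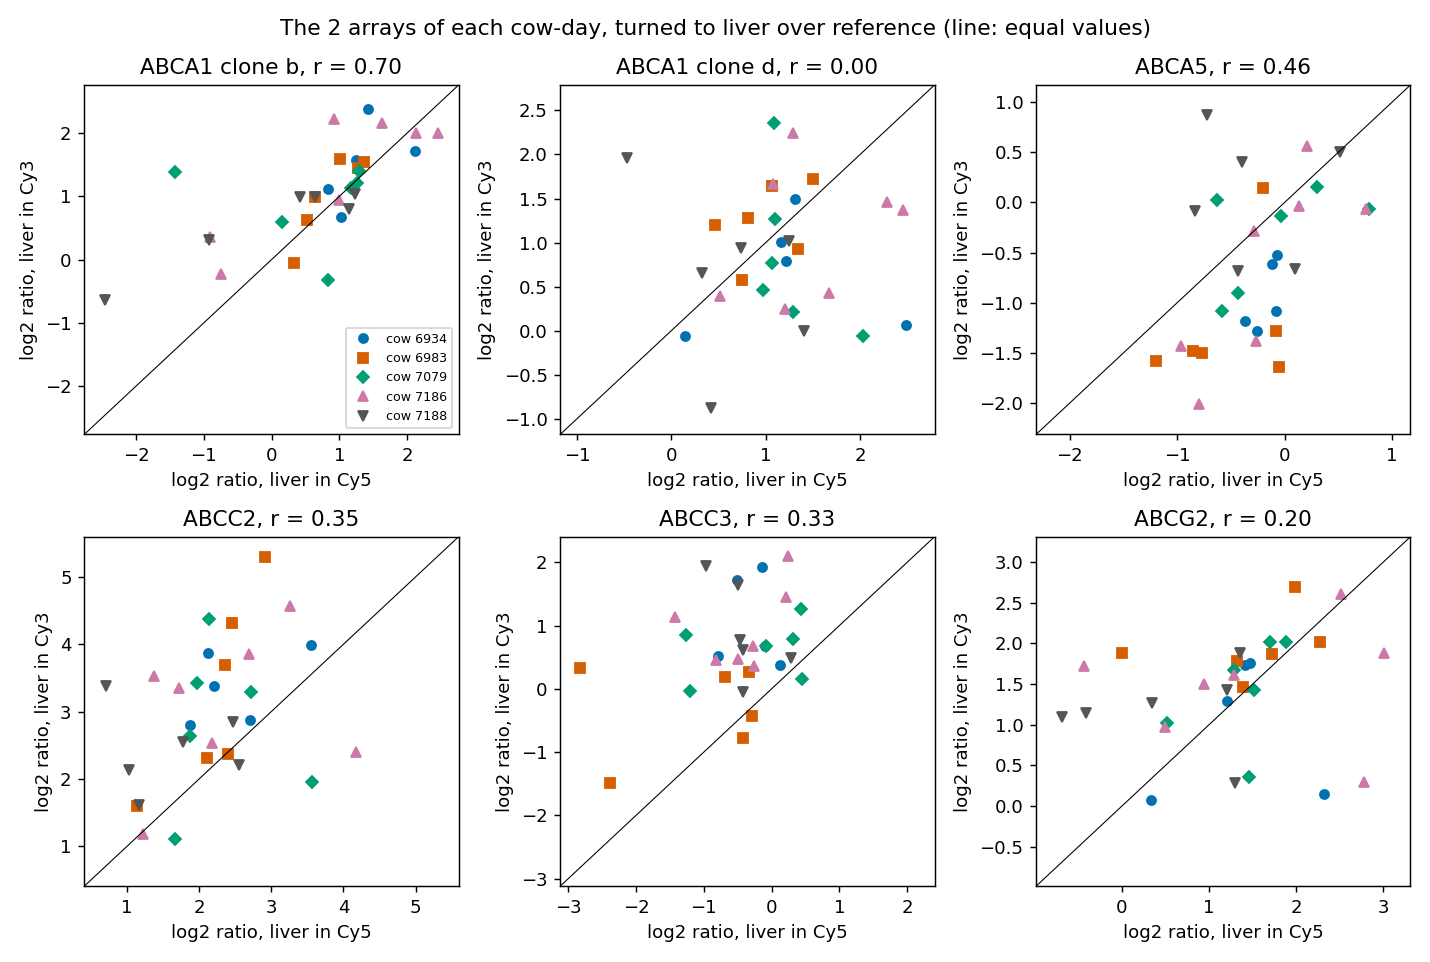
Log2 ratio on the array with liver in Cy3 (vertical) against the array with liver in Cy5 (horizontal) of the same cow-day, both turned to liver over reference, for 6 clones, with colours for cows and a line of equal values. ABCC3 lies mostly above the line, 1.14 on average, ABCA1 clone b follows the line best (r = 0.69) and ABCA1 clone d shows no relation (r = 0.00).

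ABCC2 and ABCG2, the pair at the canalicular membrane, had values that ran together over cow-days, with r = 0.61 over 30 cow-days and 0.81 after the day and cow terms were removed. ABCD3 ran with ABCG2 at 0.69 (0.78 after the terms, 29 cow-days), and ABCA1 clone b ran with ABCC2 at 0.63. ABCC3 ran with neither canalicular exporter (-0.21 with ABCC2 and -0.36 with ABCG2). These correlations are descriptions without a test, because the values of a cow-day share their arrays. The exchanged arrays of a cow-day correlated at only 0.35 for ABCC2 and 0.20 for ABCG2. The part of shared array error in the values that ran together was not tested. The mean of the hepatocyte markers correlated at 0.55 with ABCG2, 0.58 with ABCD3, 0.59 with ABCA1 clone d and 0.51 with ABCC2, but at -0.12 with ABCC3.

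**Figure D5:**
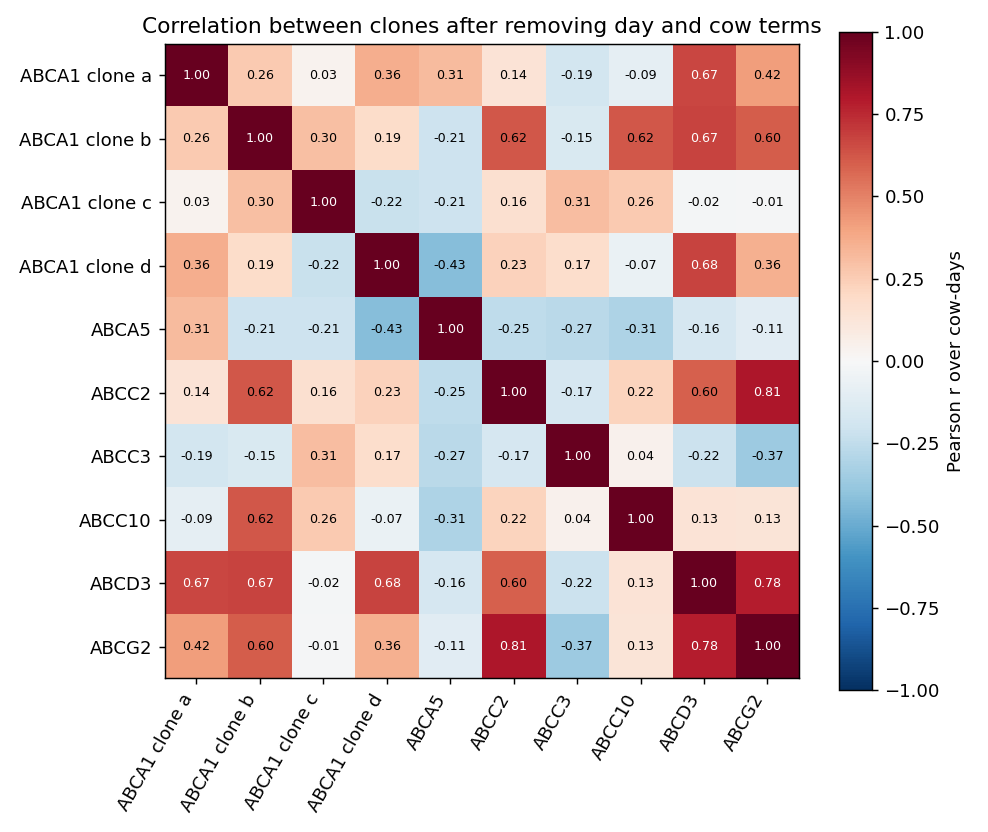
Pearson correlation between the 10 clones over 28 to 30 cow-days after removing day and cow terms (colour scale from -1 to 1, value in each cell). ABCC2, ABCD3 and ABCG2 correlate with each other at 0.60, 0.78 and 0.81, ABCA1 clone b correlates with ABCC2 at 0.62, with ABCD3 at 0.67 and with ABCG2 at 0.60, and the 4 ABCA1 clones correlate with each other between -0.22 and 0.36.

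Among 4878 clones naming a single gene and measured in every cow-day, the most similar course over 30 cow-days was sought for the 8 member clones that were themselves measured in every cow-day, so not for ABCD3 or ABCA1 clone c. It was that of ERLIN2 for ABCC2 (r = 0.80), DAXX for ABCC3 (0.73), SLC40A1 for ABCG2 (0.86), FAAH for ABCA5 (0.90) and KIAA1143 for ABCC10 (0.84). For ABCA1 it was PNISR for clone a (0.66), PDCD4 for clone b (0.89) and ACSL5 for clone d (0.74), so these 3 clones had different nearest genes.

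Of other ABC proteins, 3 of 4 listed were on the array and 1 was tested, TAP1, a peptide transporter of antigen presentation. TAP1 was called between cows (limma, adjusted p = 0.0484) and not between days. It stood at -0.54 ± 0.29 (SE) for day 1 minus day -30. TAP1 was also the clone next to DAXX in likeness to ABCC3, with r = 0.71.

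Bile acid synthesis, conjugation and transport was represented by 6 genes of 35 listed, and 0 were called over days and 2 between cows (SLC27A2 and MSN), where 15.8% of all tested clones were called between cows. Of these 6, 5 had an estimate below 0 for day 1 minus day -30, with a median of -0.42, and 5 had one above 0 for day 28 minus day 1, with a median of 0.35. The same medians over all tested clones were -0.06 and 0.06. SCP2, which carries sterols and has a peroxisomal thiolase form, stood at -1.02 ± 0.63 (SE) on day 1 against day -30. SLCO2B1, an organic anion uptake carrier, stood at -0.72 ± 0.38 and SLC10A1, the bile acid uptake carrier of the sinusoidal membrane, at -0.54 ± 0.49. None of these 3 passed the test (adjusted p from 0.636 to 0.804 in limma). The rest of the list lay nearer 0, with EZR at -0.30 ± 0.27, MSN at -0.14 ± 0.15 and SLC27A2 at 0.00 ± 0.21.

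Sterol efflux, lipoprotein and LXR genes were represented by 13 of 37 listed. None was called over days (0 of 13, and 0 at an unadjusted p under 0.05), and 3 were called between cows (SOAT1, RXRB and NPC1), against 15.8% of all tested clones. Their median for day 1 minus day -30 was -0.01, with 7 of 13 below 0. APOA1, the acceptor of ABCA1's cholesterol, stood at 0.17 ± 0.20 (SE).

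Peroxisomal genes, the setting of ABCD3, were represented by 13 of 44 listed, with 0 called over days or between cows (15.8% of all tested clones between cows). Their median for day 1 minus day -30 was -0.34, with 10 of 13 below 0, against 3017 of 5280 among all tested clones. PRDX5, a peroxiredoxin, stood at -0.54 ± 0.26 (SE, adjusted p = 0.590 in limma). Genes of conjugation and xenobiotic sensing had 10 tested of 40 listed. Of these 10, 0 were called over days and 2 between cows (POR and KEAP1), against 15.8% of all tested clones. Their median was -0.19, with 8 of 10 below 0. SULT1A1, a phenol sulfotransferase, stood at 0.72 ± 0.26 for day 28 minus day 1 and had the smallest p of that list over days (unadjusted p = 0.0163, adjusted p = 0.862).

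A further 4 cow-days, of another array print, were not part of the tests. ABCC2 there read 2.44 in cow 6934 and 1.13 in cow 7079 on day -14, and 1.48 in cow 6934 and 1.96 in cow 7188 on day 14. ABCG2 read 1.65 in cow 6934 and 0.95 in cow 7079 on day -14, and 1.39 in cow 6934 and 1.56 in cow 7188 on day 14. Both were above the reference in all 4, as in the 30 cow-days of the main print. ABCA5 read between 0.22 and 0.52 in these 4, while it lay below 0 in all 6 cow-days of the same days on the main print. The prints were normalized separately, so these levels were not tested against each other.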

How the data were processed

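Liver RNA of 5 cows was measured against a reference standard on 68 arrays (34 cow-days). The scanner was a Scanarray 4000 and the image software GenePix 4.0, per the labels. The authors deposited 1 log2 ratio of the dye channels per spot, with base 2 judged from the values. The sources used here do not give background correction, flags or normalization. No intensities were used, so signal over background is unknown and the number of arrays limits precision.

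From these, each array was centred on its median, arrays with liver in Cy3 were turned, the 2 spots of a clone were averaged, and then the pair of a cow-day, both orientations required. Tests used the larger table (60 arrays, 30 cow-days, 16416 rows). The 8 arrays of the smaller table entered an alternative only. Clones with at least 3 cows on each day were tested (5280 of 5693). Clone names came from the platform table, 5591 symbols updated by gene identifier. limma 3.58.1 (R 4.3.3) fitted day and cow terms with eBayes and 19 residual degrees of freedom, and a missing value was not imputed. P-values are 2-sided and adjusted by Benjamini-Hochberg over all tested clones, with calls at 0.05. Each cow was sampled on several days and was therefore a block. Deviations of the same cow on different days correlated at 0.14 on average, against -0.03 between different cows. The procedure was also run on simulated data with independent noise for each clone and cow-day. These had no error shared within an array or between dyes, so they do not show how the tests behave under such error.

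The members and gene lists were chosen with earlier results of these data known. Named genes were all member clones, the clone most alike each member measured in every cow-day, and up to 5 per list with the smallest p over days, besides SLC10A1, POR, KEAP1, NPC1, RXRB and TAP1's likeness rank, which were named after their values were seen. Alternatives changed centring, scaling, orientation, block, array weights, spots, missing-value filter, tables and cows. No sequences are shown.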

Additional observations from a re-analysis of the deposited data

Results flagged for a closer look

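In each group of 4 or 5 cows on a day, the highest and lowest value were compared with the rest by Dixon's ratio of the gap to the range at its 95% limit. Of 50 groups over the 10 clones, 4 (8%) had a cow set apart, where chance gives about 1 in 20 groups. ABCC2 of cow 7188 on day 1 was 1.39, with the other 4 cows between 2.21 and 2.53. ABCG2 of the same cow and day was 0.21, with the others between 1.22 and 1.57. In that cow-day ABCA1 clone b (-0.31), ABCA1 clone d (-0.23), ABCC10 (-0.58) and ABCD3 (-0.063) were also the lowest of the 5 cows, and so was the hepatocyte marker mean, at 1.45. ABCA5 (0.51) and ABCA1 clone c (0.42) were the highest of the 5 cows there. ABCA1 clone a (0.61) and ABCC3 (0.09) lay between the other cows. ABCG2 of cow 7186 on day 49 was 2.56, with the other 3 cows between 1.25 and 1.47. ABCC10 of cow 6934 on day -65 was -0.049, with the other 4 cows between -0.28 and -0.30. Leaving out cow 7188 gave -1.04 for ABCC2 on day 1 minus day -30, against -1.03 with all cows.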

How the results depend on the processing

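Member calls between days were 0 of 9 in the alternatives tried, with the exception of ABCC3 for lactation minus prepartum, called with liver in Cy5 alone (1 member and 1 clone in all) and at 0.10 with liver in Cy3 alone. ABCC2 kept its direction for day 1 minus day -30 (adjusted p from 0.0634 to 0.862) and for day 28 minus day 1 (0.67 to 1.33) in all alternatives, and ABCA5 and ABCC3 kept theirs for day 28 minus day 1. ABCA1 clone b, ABCA5 and ABCC10 kept their sign for day 1 minus day -30. Each of the other estimates changed sign in at least 1 alternative. For these changes of sign the cause was not tested.

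Without centring, the median of all clones moved by 0.12 for day 1 minus day -30 and 0.14 for lactation minus prepartum, 0 clones were called over days and 0 clones and 0 members between cows. Estimates were then 0.021 for ABCA1 clone d and 0.11 for ABCC3 (day 1 minus day -30), 0.014 for ABCA1 clone b (day 28 minus day 1), and 0.069 for ABCA1 clone b, 0.061 for clone d, 0.12 for ABCA5 and 0.091 for ABCC2 (lactation minus prepartum). Scaled to 1 median absolute deviation, 0 clones were called over days, 550 between cows and 10 for day 1 minus day -30, with -0.013 for ABCA1 clone a and -0.17 for ABCG2 (day 1 minus day -30), 0.10 for ABCA1 clone b (day 28 minus day 1), and -0.028 for ABCA1 clone a, 0.0095 for ABCA5 and -0.019 for ABCC10 (lactation minus prepartum). Centred on the listed clones, ABCC3 was at 0.015 (day 1 minus day -30).

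With liver in Cy3 alone, 2 of 9 members (ABCA5 and ABCC3) were called between cows, where 746 of the 5280 tested clones were. For day 28 minus day 1, 6 clones and 0 members were called. Day 28 minus day 1 was -0.20 for ABCA1 clone a, 0.059 for clone b, -0.060 for clone d and -0.63 for ABCG2, and lactation minus prepartum was 0.069 for ABCC2 and -0.023 for ABCD3. With liver in Cy5 alone, 0 clones were called over days, 4 clones and 0 members between cows and 0 clones for day 1 minus day -30. Day 1 minus day -30 was -0.37 for ABCA1 clone a, 0.079 for ABCC3, -0.39 for ABCD3 and -0.52 for ABCG2, day 28 minus day 1 was -0.046 for ABCC10 and 0.56 for ABCD3, and lactation minus prepartum was -0.14 for ABCA1 clone a and 0.055 for clone b.

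Without the 5 cow-days whose exchanged arrays correlated above 0, 0 clones were called over days and 0 clones and 0 members between cows. Day 1 minus day -30 was 0.020 for ABCA1 clone d, 0.052 for ABCC3 and -0.12 for ABCG2, day 28 minus day 1 was -0.16 for ABCA1 clone a, 0.16 for clone b and -0.016 for clone d, and lactation minus prepartum was 0.079 for ABCA1 clone b, 0.0028 for ABCA5 and 0.41 for ABCC2. With no block for cow, so without the pairing of days within a cow, 0 clones were called over days, ABCD3 was at -0.025 (day 1 minus day -30) and ABCA5 at 0.00036 (lactation minus prepartum), and no member call changed. With cow as a random block ABCD3 was at -0.0092. With only the days of the contrast 0 clones were called for day 1 minus day -30. Array weights gave 1756 clones between cows and 2 for day 1 minus day -30, with 0.043 for ABCA1 clone d (day 1 minus day -30), 0.20 for ABCA1 clone b and -0.10 for ABCG2 (day 28 minus day 1), and -0.041 for ABCA1 clone a, 0.041 for ABCA5, -0.053 for ABCD3 and -0.089 for ABCG2 (lactation minus prepartum). With the first spot alone ABCA1 clone d was at 0.10 and ABCD3 at -0.20 (day 1 minus day -30), and ABCA1 clone b at 0.10, clone d at -0.044 and ABCD3 at 0.10 (day 28 minus day 1). Joining both tables gave 11 clones and 0 members between cows and 0.11 for ABCA1 clone b (lactation minus prepartum).

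Leaving out each cow in turn gave 0 clones over days, 0 to 816 clones and 0 to 1 members between cows, 0 to 1 clones for day 1 minus day -30 and 0 to 1 for day 28 minus day 1. Day 1 minus day -30 ran from -0.17 to 0.25 for ABCA1 clone a, -0.37 to 0.12 for clone d, -0.21 to 0.12 for ABCC3, -0.39 to 0.20 for ABCD3 and -0.34 to 0.31 for ABCG2. Day 28 minus day 1 ran from -0.080 to 0.17 for ABCA1 clone a, -0.30 to 0.27 for clone b, -0.11 to 0.31 for clone d, -0.14 to 0.18 for ABCC10 and -0.11 to 0.23 for ABCG2. Lactation minus prepartum ran from -0.052 to 0.10 for ABCA1 clone a, -0.54 to 0.24 for clone b, -0.19 to 0.14 for ABCA5, -0.34 to 0.22 for ABCC2, -0.039 to 0.16 for ABCC10, -0.035 to 0.31 for ABCD3 and -0.061 to 0.34 for ABCG2.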
